A study of Mus musculus with 2 samples.

Results

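The genes described here take up arginine, turn it into nitric oxide, rebuild it from citrulline, and make or acetylate polyamines. They are Slc7a2, Nos2, Ass1, Asl, Odc1, Srm, Sms and Sat1, 8 of the 27998 genes in the count files, taken by symbol. They were measured in single CD45+ cells (leukocytes) sorted with magnetic beads from subcutaneous TSA tumours, which arise from a mammary adenocarcinoma line injected into Balb/c mice at 100000 cells. Mice were left untreated or, from a tumour area of 0.25 cm2, drank water with 0.5% nicotinamide (NAM, vitamin B3 in its amide form) during 10 days. Tumours of 3 mice were pooled into 1 library per group, so no difference below has a replicate check, no test was made, and NAM and the library cannot be told apart. A graft of a single line and about 10 days of treatment limit what these cells stand for.

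Slc7a2 is a cationic amino acid transporter that brings arginine into the cell. Inducible nitric oxide synthase, encoded by Nos2, turns arginine into nitric oxide and citrulline. Ass1 and Asl rebuild arginine from citrulline. Ornithine feeds polyamine synthesis through Odc1, Srm and Sms, and Sat1 acetylates spermidine and spermine for export or breakdown. In macrophages, Nos2 is a classical gene of activation by interferon and bacterial products.

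The untreated library held 2922 cells with 29161823 UMIs (unique molecular identifiers, each marking 1 captured transcript) and the NAM library 3276 cells with 32090120. The median cell had 9056 and 9128 UMIs. The libraries had 11 cell barcodes in common. Levels are UMIs per 1000000 UMIs of the gated cells (CPM) with exact Poisson 95% intervals. Log2 ratios are NAM over untreated with 95% conditional binomial intervals, shares of cells carry Clopper-Pearson intervals, and all of these cover counting error only. They treat UMIs as independent, although UMIs of 1 cell are not. A 3′ UMI count is not divided by transcript length, so no gene's level was compared with another's.

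Cells were sorted into gates by UMIs of other genes. Cells with 50 or more C1qa, C1qb and C1qc UMIs per 10000 were called macrophages (1905 untreated and 2127 NAM cells). Among them, Vcam1 and Dnase1l3 marked 481 and 510 cells, Mmp12 and Hmox1 marked 200 and 178, both pairs marked 56 and 55, cell cycle genes marked 183 and 193, and interferon-induced genes marked 96 and 108. The remaining 889 and 1083 were left as other macrophages. Below the C1q threshold, Mmp12 and Hmox1 marked 59 and 80 cells, Ctsk and Acp5 marked 141 and 158, and Ly6c2 and Plac8 marked 240 and 277, called Ly6c2 monocytes here. Dendritic cells were gated by Cd209a (32 and 39 cells), by Ccr7 and Fscn1 (31 and 26) and by Xcr1 and Clec9a (31 and 32). The macrophage receptor gene Adgre1 stood at 386 CPM in untreated Vcam1 Dnase1l3 macrophages and 147 CPM in untreated Ly6c2 monocytes. In the latter, the monocyte gene Ccr2 reached 432 CPM against 178 CPM in other macrophages of that library. S100a4, on the same monocyte list, went against the gate, at 537 CPM in untreated Ly6c2 monocytes and 3181 CPM in Ctsk Acp5 cells. Near the C1q threshold, 89 of 2922 untreated and 64 of 3276 NAM cells lay within 20% of it. Each gate is therefore a range of marker UMIs, not a cell type.

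Over all cells, Nos2 and the transporter Slc7a2 were higher in the NAM library. Nos2 stood at 1.89 CPM in the untreated and 6.14 CPM in the NAM library (log2 ratio 1.70, 95% interval 1.26 to 2.16), and Slc7a2 at 4.94 and 6.89 CPM (log2 ratio 0.48, interval 0.17 to 0.79). Ass1 and Asl were slightly higher, at 85.1 and 90.5 CPM (log2 ratio 0.090, interval 0.012 to 0.17) and at 49.6 and 54.6 CPM (log2 ratio 0.14, interval 0.039 to 0.24). By contrast, the polyamine genes were level or lower. Odc1 had 78.0 and 70.6 CPM, Srm 49.7 and 45.7 CPM, Sms 50.6 and 48.6 CPM, and Sat1 875 and 800 CPM. With a threshold of 1.5 fold and at least 20 UMIs, 1 member, Nos2, was higher and none was lower, where 2.96% of 12650 genes were higher and 6.89% lower by the same rule.

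**Figure D1:**
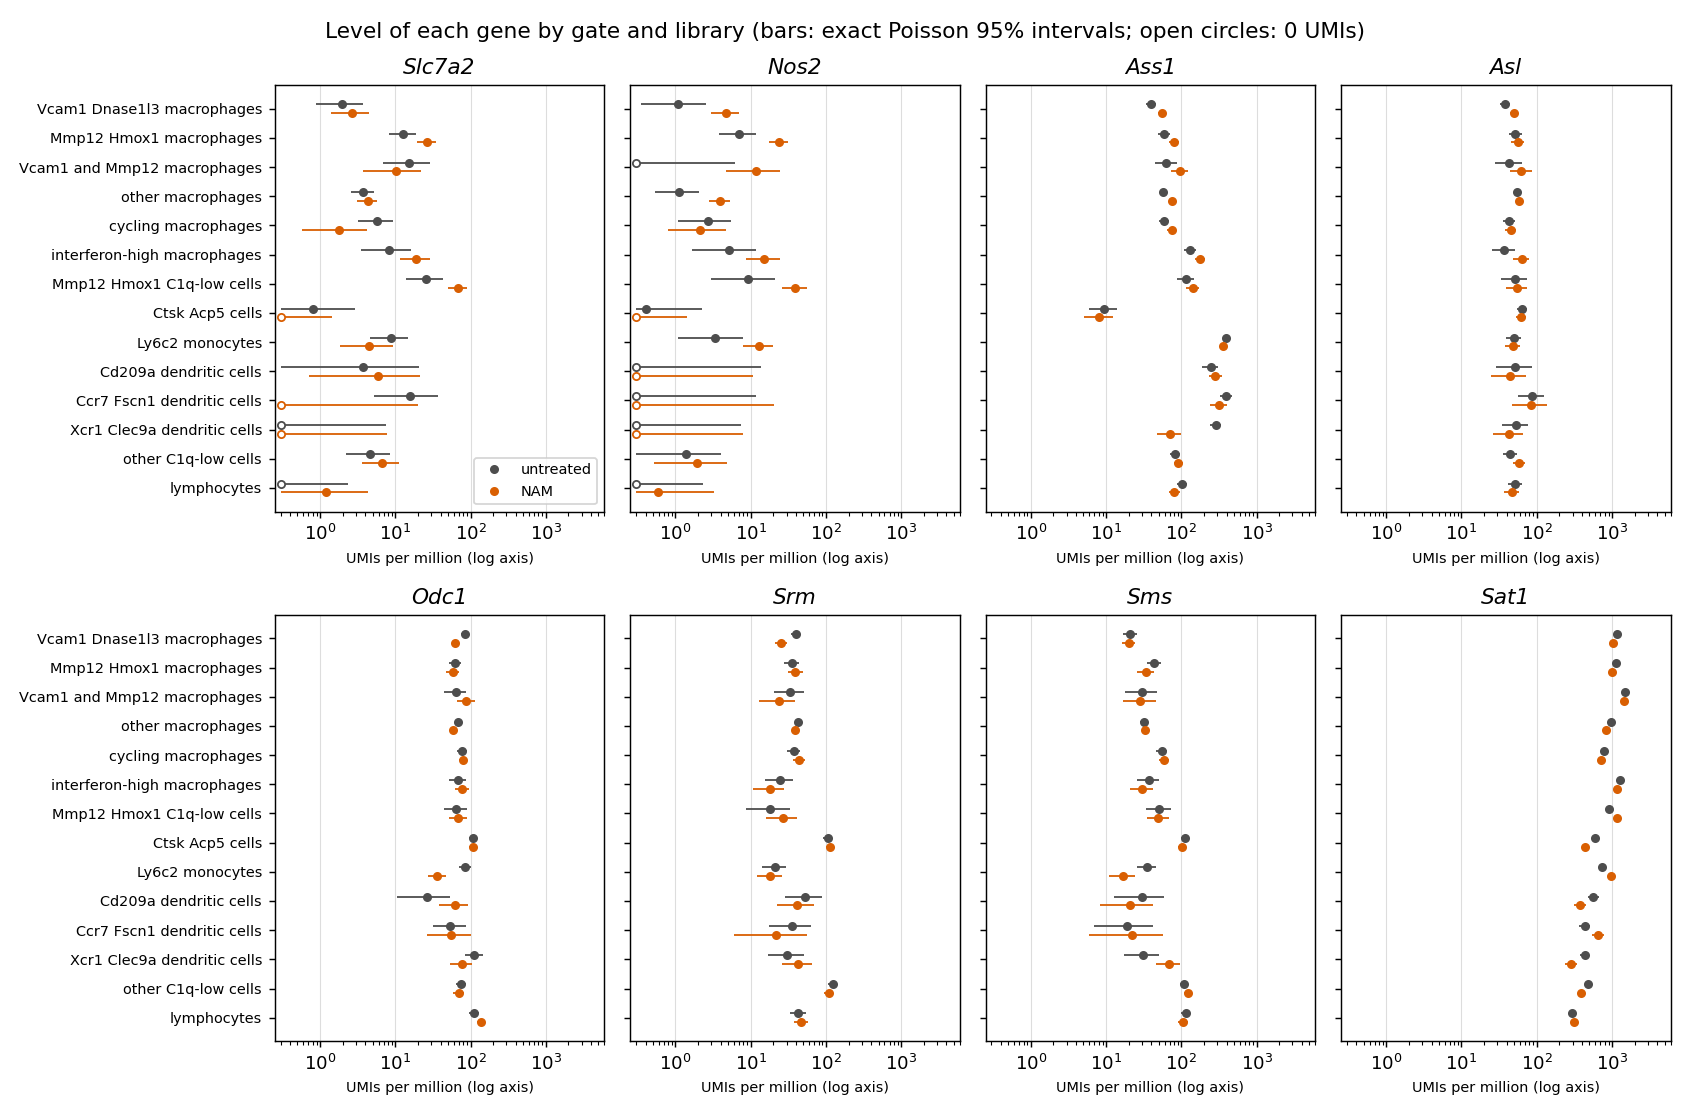
Level of each of the 8 genes (CPM, log axis) in each gate, with untreated cells in grey and NAM cells in orange. Bars are exact Poisson 95% intervals and open circles at the left edge mark 0 UMIs. Slc7a2 and Nos2 are highest in Mmp12 Hmox1 C1q-low cells (25.4 and 67.7 CPM for Slc7a2), with intervals that overlap that of the next gate in the untreated library. Ass1 is highest in Ly6c2 monocytes and Asl is nearly flat.

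Slc7a2 (chr8:40862396-40922308, plus strand, GRCm38, with a gene on the other strand at the same place), the arginine transporter, was sparse, with 144 UMIs in the untreated and 221 UMIs in the NAM library. It was highest in Mmp12 Hmox1 C1q-low cells, at 25.4 and 67.7 CPM, and reached 12.6 and 26.3 CPM in Mmp12 Hmox1 macrophages (log2 ratio 1.06, interval 0.35 to 1.82). In the untreated library the C1q-low interval overlapped that of the next gate, Ccr7 Fscn1 dendritic cells (15.9 CPM from 5 UMIs). Macrophages of both pairs went the other way, at 15.0 and 10.1 CPM from 9 and 6 UMIs, with an interval that included 0. These 2 gates ranked above Mmp12 Hmox1 macrophages in the untreated library. In Vcam1 Dnase1l3 macrophages it stood at 1.95 and 2.62 CPM. The Mmp12 Hmox1 gates of either C1q level together held 27.1% of the untreated and 46.2% of the NAM library's Slc7a2 UMIs, in 8.70% and 8.39% of all UMIs. The ratio in the C1q-low cells was 1.41 (interval 0.54 to 2.38) and turned to -0.21 with stricter thresholds. In all macrophages the levels were 5.04 and 6.38 CPM with an interval that included 0. Cycling macrophages had 15 untreated and 5 NAM UMIs of it, and Xcr1 Clec9a dendritic cells had 0 UMIs in both libraries, which allows up to 6.11 and 6.35 CPM (3 UMIs). Lymphocytes, which show the background of free RNA, had 0 untreated and 2 NAM UMIs at median depths of 4688 and 4408 UMIs.

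Since Mmp12 and Hmox1 defined the gates where Slc7a2 was highest in the NAM library, all macrophages were also split by these markers. The split used summed Mmp12 and Hmox1 UMIs per 10000, in bins chosen after the data were seen. Macrophages with none had 2.11 CPM of Slc7a2 in the untreated and 3.02 CPM in the NAM library. From 2 to 5 UMIs per 10000 the levels were 6.55 and 4.36 CPM, and from 5 to 20 they were 10.3 and 13.5 CPM. At 20 or more they were 23.5 CPM in 75 untreated cells and 48.5 CPM in 91 NAM cells (log2 ratio 1.04, interval 0.26 to 1.89). In both libraries Slc7a2 was higher in each successive bin, and the interval of its ratio left out 0 in the highest bin alone. Mmp12 itself, 1 of the gate's own markers, was at 964 CPM in the untreated and 1867 CPM in the NAM cells of the Mmp12 Hmox1 gate, and Hmox1 at 1548 and 1198 CPM. The part of these markers in the Slc7a2 difference was not tested.

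**Figure D2:**
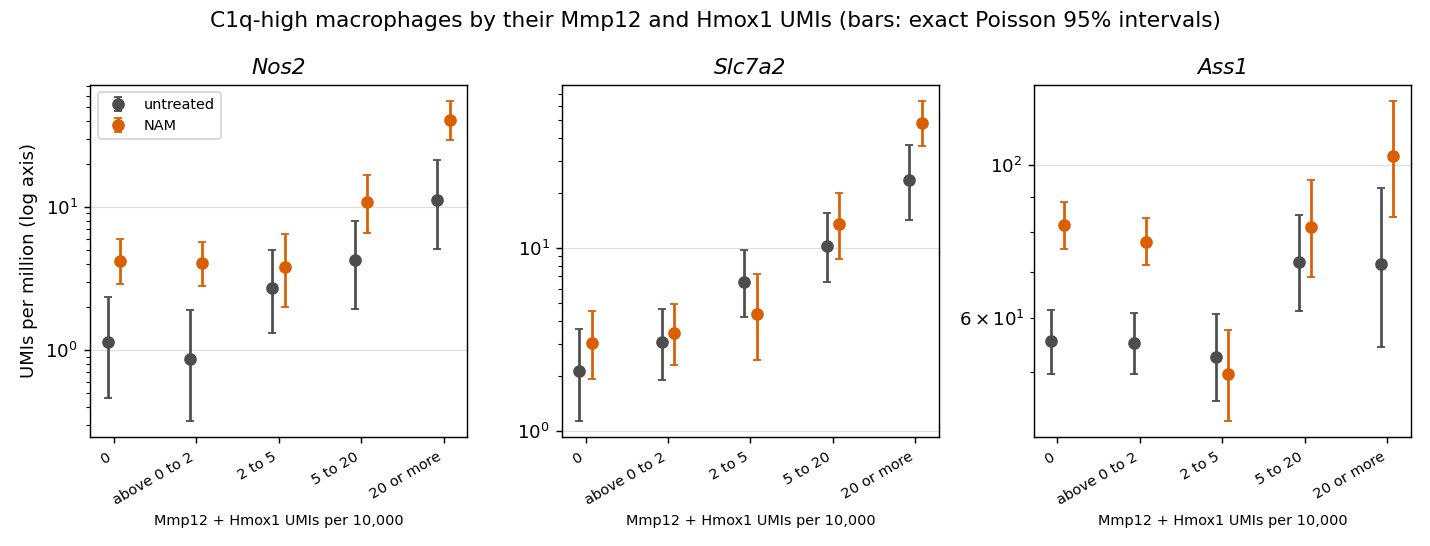
Nos2, Slc7a2 and Ass1 in C1q-high macrophages (CPM, log axes with a scale of their own in each panel) split by summed Mmp12 and Hmox1 UMIs per 10,000, untreated in grey and NAM in orange. Bars are exact Poisson 95% intervals. Slc7a2 goes from 2.11 and 3.02 CPM in the lowest bin to 23.5 and 48.5 CPM in the highest, while Ass1 stays between 49.7 and 103 CPM.

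Nos2 (chr11:78920787-78960254, plus strand) was detected in 43 of 2922 untreated cells and 119 of 3276 NAM cells, with 55 and 197 UMIs. No cell had more than 4 UMIs in the untreated or 8 in the NAM library. In all macrophages the level was 2.09 CPM in the untreated and 6.34 CPM in the NAM library (log2 ratio 1.60, interval 1.09 to 2.14), and the alternatives in processing gave ratios between 1.35 and 2.01. The difference was not confined to the Mmp12 gates. Vcam1 Dnase1l3 macrophages had 5 untreated and 23 NAM UMIs, at 1.08 and 4.63 CPM. Mmp12 Hmox1 macrophages had 14 and 46 UMIs, at 7.05 and 23.7 CPM (log2 ratio 1.75, interval 0.86 to 2.73), but with looser thresholds the untreated level there was 1.92 CPM and the ratio 3.30. Other macrophages had 10 and 42 UMIs, at 1.13 and 3.92 CPM. Interferon-high macrophages had 5 and 16 UMIs, at 5.12 and 15.0 CPM (log2 ratio 1.55, interval 0.039 to 3.36). In cycling macrophages (7 and 6 UMIs) and other C1q-low cells (3 and 4 UMIs) the intervals included 0. Several of these gates had 5 untreated UMIs and reached the minimum of 20 through the NAM library, so no count of gates is drawn from it. Markers of neutrophils moved with Nos2 in some of them. A list of 5 such genes summed to 54.0 and 107 CPM in Vcam1 Dnase1l3 macrophages, with S100a8 at 8.02 and 42.1 CPM, and to 48.1 and 101 CPM in interferon-high macrophages. In other macrophages the same list stood at 80.4 and 72.2 CPM and in Mmp12 Hmox1 macrophages at 48.8 and 44.9 CPM. The list was also higher in the NAM library in macrophages of both pairs, at 73.3 and 186 CPM. So it was in lymphocytes, which show the background of free RNA, at 15.1 and 80.6 CPM, with 0 and 1 Nos2 UMIs. The part of these markers in the Nos2 differences was not tested.

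The Mmp12 Hmox1 gates that led for Slc7a2 in the NAM library ranked highest for Nos2 in both libraries (38.1% of the NAM library's Nos2 UMIs). Mmp12 Hmox1 C1q-low cells had 5 untreated and 29 NAM UMIs, at 9.08 and 38.5 CPM. In the NAM library their interval (25.8 to 55.3 CPM) lay above those of the other gates except Mmp12 Hmox1 macrophages (17.4 to 31.6 CPM), whereas in the untreated library it overlapped those of several gates. In these C1q-low cells, where Slc7a2 and Sat1 were also higher in the NAM library, a list of 3 interferon-induced genes went with them, at 83.5 and 307 CPM in 15.3% and 27.5% of cells. Mmp12 stood there at 2541 and 4777 CPM. The part of these markers in the 3 differences was not tested. Ly6c2 monocytes had 5 and 20, at 3.35 and 12.9 CPM, and the 5 highest cells held 80.0% of the latter. The dendritic gates had 0 Nos2 UMIs in both libraries, which allows from 6.11 CPM (Xcr1 Clec9a, untreated) up to 16.5 CPM (Ccr7 Fscn1, NAM), so levels like those of several macrophage gates were not detectable there. Ctsk Acp5 cells had 1 and 0 UMIs and lymphocytes 0 and 1, which is the background for this gene. Among macrophages with 20 or more Mmp12 and Hmox1 UMIs per 10000, 6.67% of 75 untreated cells and 22.0% of 91 NAM cells had a Nos2 UMI, at 11.1 and 40.7 CPM. Among macrophages with neither marker the shares were 0.880% and 2.85%. Nos2 was thus higher in the NAM library at both ends of the Mmp12 and Hmox1 range (in the bin from 2 to 5 its interval included 0).

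Ass1 (chr2:31470207-31520672, plus strand), argininosuccinate synthase, was highest in Ly6c2 monocytes and Ccr7 Fscn1 dendritic cells. It stood at 397 CPM in untreated and 362 CPM in NAM Ly6c2 monocytes, and at 391 and 314 CPM in Ccr7 Fscn1 dendritic cells, which did not differ beyond their intervals. Cd209a dendritic cells stood at 245 and 283 CPM. Xcr1 Clec9a dendritic cells, at 287 and 69.9 CPM, ranked above them in the untreated library but below most macrophage gates in the NAM library. Macrophage gates lay between 39.2 and 132 CPM in the untreated library, and Ctsk Acp5 cells had 9.30 and 8.13 CPM. The order placed Ly6c2 monocytes first in both libraries and Ctsk Acp5 cells last.

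In macrophages Ass1 was higher in the NAM library, at 57.3 and 76.1 CPM (log2 ratio 0.41, interval 0.30 to 0.52). The ratio lay between 0.35 and 0.59 in the 6 macrophage gates, and the interval left out 0 in 5 of them, macrophages of both pairs being the exception. Split by Mmp12 and Hmox1 UMIs per 10000, macrophages from 2 to 5 had 52.7 and 49.7 CPM of Ass1 (log2 ratio -0.084, interval -0.39 to 0.22). From 5 to 20 the interval also included 0 (-0.17 to 0.50), and in the other bins Ass1 was higher. In Ly6c2 monocytes the Ass1 ratio was -0.13 (interval -0.30 to 0.037). In Xcr1 Clec9a dendritic cells Ass1 was lower in the NAM library, with 141 UMIs in 31 untreated cells and 33 UMIs in 32 NAM cells (log2 ratio -2.04, interval -2.63 to -1.48). The 5 highest of these cells held 73.0% and 57.6% of the UMIs, and without them the ratio was -1.44. Markers of the Ccr7 Fscn1 gate moved with Ass1 here, with Ccr7 and Fscn1 summing to 845 CPM in the untreated and 108 CPM in the NAM cells and found in 41.9% and 15.6% of them. The interferon gate genes stood at 564 and 226 CPM. The part of these markers in the result was not tested. The share of these cells with an Ass1 UMI was 48.4% and 56.2% at full depth but 32.3% and 15.6% after each cell was thinned at random to 3000 UMIs, so no order is read from the shares.

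Asl (chr5:130011258-130029247, minus strand), which follows Ass1 in rebuilding arginine, was the most even of the 8 genes. Its gates spanned 36.8 to 85.7 CPM in the untreated library, 2.33 fold, and 1.95 fold in the NAM library. In all macrophages it was at 47.5 and 54.5 CPM (log2 ratio 0.20, interval 0.073 to 0.32). The interval left out 0 in 2 of 13 gates, Vcam1 Dnase1l3 macrophages (38.4 and 50.1 CPM) and interferon-high macrophages (36.8 and 62.9 CPM), and both were higher in the NAM library.

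Of the polyamine genes, Odc1 (chr12:17544794-17551505, plus strand, with a snoRNA gene inside it on the same strand), the ornithine decarboxylase, was lower in the NAM library in Ly6c2 monocytes. It had 125 UMIs in the untreated and 56 UMIs in the NAM monocytes, or 83.9 and 36.2 CPM (log2 ratio -1.21, interval -1.69 to -0.75). The ratio stayed between -1.52 and -1.04 under the alternatives. Its ratio in Cd209a dendritic cells went the other way, at 1.24, but rested on 7 untreated and 21 NAM UMIs (26.0 and 61.4 CPM) with an interval of -0.051 to 2.71. The monocyte gate genes Ly6c2 and Plac8 summed there to 2689 and 1283 CPM, and their part in it was not tested. Sms (chrX:157443855-157492287, minus strand), spermine synthase, was also lower in Ly6c2 monocytes, at 34.9 and 16.8 CPM (log2 ratio -1.05, interval -1.79 to -0.35), and its ratio stayed between -1.53 and -0.92. Srm (chr4:148591503-148594993, plus strand), spermidine synthase, was at 20.8 and 18.1 CPM there, with an interval of -0.99 to 0.58. In contrast, Sat1 (chrX:155213132-155216449, minus strand), which acetylates spermidine and spermine, was at 743 CPM in the untreated and 958 CPM in the NAM monocytes (log2 ratio 0.37, interval 0.25 to 0.48). In this gate, lymphocyte markers summed to 88.6 CPM in the untreated and 32.3 CPM in the NAM cells, against 4162 and 5233 CPM in lymphocytes. A list of 4 other genes, set to check the Mmp12 Hmox1 macrophages, was also lower there. It summed to 2390 CPM in the untreated and 1183 CPM in the NAM cells, most of it Spp1 (2141 and 993 CPM). The list was not particular to those macrophages, at 2151 CPM in them and 2089 CPM in other C1q-low cells of the untreated library. In the monocytes the gate genes Mmp12 and Hmox1 summed to 366 and 370 CPM. The part of these genes in the Odc1 and Sms differences was not tested. Leaving out cells with a UMI of the lymphocyte gate's own markers gave an Odc1 ratio of -1.08 and an Sms ratio of -1.11. Those markers are other genes than the ones behind the 88.6 and 32.3 CPM. They stood at 19.5 CPM in the untreated and 18.7 CPM in the NAM monocytes. Cells were not left out by the genes that differed, so these ratios cannot show their part.

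Since Odc1 and Sms were lower together in these monocytes, their promoter sequences are given, from RefSeq (GRCm38.p6), as the 250 bases before each start site. Promoters of 4 members were found in the RefSeq table (Ass1, Odc1, Sat1, Sms). Capitals mark matches, on either strand, to the GC box GGGCGG, the E-box CACGTG, the CCAAT box, TATAAA, TTCNNNGAA or TGANTCA, and GC boxes may overlap. The windows are chr12:17544623-17544872 (plus strand) for Odc1, chrX:157492288-157492537 (minus strand) for the outer Sms start and chrX:157491369-157491618 (minus strand) for the inner one.
Odc1: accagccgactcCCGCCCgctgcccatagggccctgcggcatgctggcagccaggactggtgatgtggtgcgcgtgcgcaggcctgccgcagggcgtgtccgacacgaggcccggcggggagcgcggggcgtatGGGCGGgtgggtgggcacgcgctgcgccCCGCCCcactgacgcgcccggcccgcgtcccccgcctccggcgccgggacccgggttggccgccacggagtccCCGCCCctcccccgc
Sms outer start: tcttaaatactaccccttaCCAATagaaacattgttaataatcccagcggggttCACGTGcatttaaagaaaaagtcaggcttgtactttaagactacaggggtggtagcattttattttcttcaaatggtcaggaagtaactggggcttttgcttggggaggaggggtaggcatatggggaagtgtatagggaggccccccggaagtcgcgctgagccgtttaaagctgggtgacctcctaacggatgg
Sms inner start: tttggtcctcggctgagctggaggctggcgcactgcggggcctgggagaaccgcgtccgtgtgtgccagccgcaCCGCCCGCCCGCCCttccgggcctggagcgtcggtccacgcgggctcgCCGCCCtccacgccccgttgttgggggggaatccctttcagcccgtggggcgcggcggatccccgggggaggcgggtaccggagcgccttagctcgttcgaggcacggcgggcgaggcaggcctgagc
Odc1 and the inner Sms window each held 4 GC boxes, and 33.0% of 32544 windows of the same length held at least 1. The outer Sms window held an E-box, present in 6.03% of windows, and a CCAAT box, present in 33.8%. These matches describe the sequence and were not set against the expression data.

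In macrophages the polyamine genes differed little between libraries. Odc1 was at 72.2 and 63.5 CPM (log2 ratio -0.19, interval -0.29 to -0.078) and Sms at 33.5 and 33.4 CPM. Srm was at 39.2 and 35.1 CPM (log2 ratio -0.16, interval -0.30 to -0.013), a ratio that turned to 0.081 after thinning. The clearest differences were in Vcam1 Dnase1l3 macrophages, where Srm was at 39.7 and 25.6 CPM (log2 ratio -0.63, interval -0.97 to -0.30) and Odc1 at 83.5 and 62.8 CPM (log2 ratio -0.41, interval -0.63 to -0.19). Srm and Sms were instead highest in C1q-low gates. In Ctsk Acp5 cells Srm stood at 105 and 112 CPM and Sms at 112 and 102 CPM, and in other C1q-low cells Srm stood at 123 and 109 CPM and Sms at 109 and 123 CPM. These levels overlapped within counting error and were above those of each macrophage gate. Sms was also at 114 and 104 CPM in lymphocytes. Ctsk Acp5 cells thus had the lowest or nearly the lowest Ass1 and Nos2 with among the highest Odc1 (109 and 107 CPM), Srm and Sms.

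Sat1 was detected in most cells, 2747 of 2922 untreated and 3030 of 3276 NAM cells. It was highest in macrophages of both marker pairs, at 1490 and 1464 CPM, and lowest in lymphocytes in the untreated library (292 CPM) and in Xcr1 Clec9a dendritic cells in the NAM library (286 CPM), where lymphocytes stood at 315 CPM. It was slightly lower in the NAM library in all macrophages, at 1035 and 915 CPM (log2 ratio -0.18, interval -0.21 to -0.15). Of 13 gates, the interval left out 0 in 9 with a lower and in 3 with a higher level in the NAM library. For cycling macrophages, lower at full depth, the ratio turned to 0.072 after thinning. The higher ones were Ly6c2 monocytes, Mmp12 Hmox1 C1q-low cells (903 and 1185 CPM) and Ccr7 Fscn1 dendritic cells (435 and 650 CPM). In the last, the list of 4 genes set to check the Mmp12 Hmox1 macrophages stood at 397 and 970 CPM. Lymphocyte markers stood there at 22.2 and 182 CPM, and the part of both in the Sat1 difference was not tested. Among the lower ones were Ctsk Acp5 cells, at 588 and 433 CPM (log2 ratio -0.44, interval -0.56 to -0.33), where the alternatives kept the ratio between -0.58 and -0.36.

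**Figure D3:**
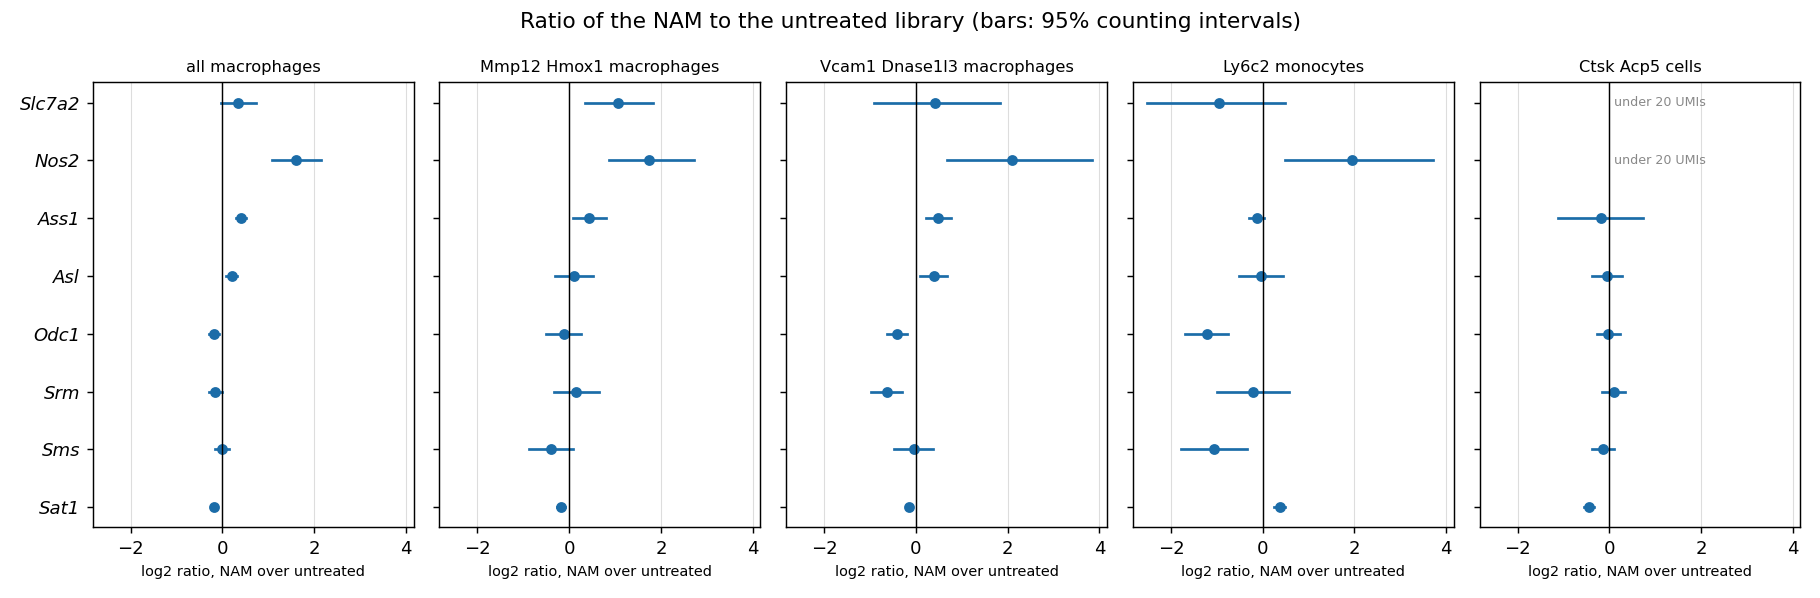
Log2 ratio of the NAM over the untreated library for each gene in 5 gates, with 95% counting intervals. A gene with under 20 UMIs has no point. Nos2 in all macrophages lies at 1.60, Sat1 changes side between Ly6c2 monocytes (0.37) and Ctsk Acp5 cells (-0.44), and Odc1 and Sms lie to the left in Ly6c2 monocytes.

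Counted by gate, from 0 to 4 members were past 1.5 fold. Where Nos2 counts as higher in Vcam1 Dnase1l3 or interferon-high macrophages, Mmp12 Hmox1 C1q-low cells or Ly6c2 monocytes, it had 5 untreated UMIs and reached the minimum through the NAM library, so it was bound to count there. In all macrophages 1 of 8, Nos2, was higher and none lower, where 3.14% of the genes counted were higher and 6.80% lower. In Mmp12 Hmox1 macrophages Nos2 and Slc7a2 were higher and none lower, beside 6.24% and 10.9% of genes. In Mmp12 Hmox1 C1q-low cells the same 2 genes were higher and none lower, beside 10.0% higher and 14.4% lower. Interferon-high macrophages had 3 higher members (Nos2, Asl and Slc7a2, the last with an interval that included 0) and none lower, beside 7.38% and 10.1%. Slc7a2 had 8 untreated and 20 NAM UMIs there and, like Nos2, reached the minimum through the NAM library. Vcam1 Dnase1l3 macrophages had Nos2 higher and Srm lower, beside 4.22% and 9.09%. In Ly6c2 monocytes Nos2 was higher and Odc1, Sms and Slc7a2 lower, beside 8.73% and 11.7%. Slc7a2 rests there on 13 and 7 UMIs with an interval that included 0. It only just met the minimum, through the untreated library, so it was bound to count as lower. In Ctsk Acp5 cells none of the 6 members with enough UMIs was past 1.5 fold in either direction, beside 4.59% higher and 9.11% lower. In Xcr1 Clec9a dendritic cells 3 of 6 were past it, Sms higher and Ass1 and Sat1 lower, beside 16.3% higher and 13.1% lower. The remaining gates had at most 1, where from 3.65% to 12.1% of genes were higher and from 6.76% to 18.5% lower. In cycling macrophages it was Slc7a2, lower from 15 and 5 UMIs, which met the minimum through the untreated library. The median log2 ratio of the members was 0.095 in all macrophages and -0.17 in Ly6c2 monocytes, where the medians over all genes counted were -0.033 and -0.0097.

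Of 59 other genes of arginine, proline, tetrahydrobiopterin, polyamine and hypusine metabolism and of known inducers, 49 had 20 or more UMIs in macrophages, and 1 was past 1.5 fold in each direction, beside 3.14% of all genes higher and 6.80% lower. Irf1, a transcription factor induced by interferon that drives Nos2, was at 78.1 CPM in the untreated and 136 CPM in the NAM library (log2 ratio 0.80, interval 0.71 to 0.89). Nfkb1, which encodes a subunit of NF-kB, was at 128 and 81.1 CPM (log2 ratio -0.66, interval -0.75 to -0.57). Most enzymes around the members were close to level. Gch1, which makes the cofactor of nitric oxide synthase, stood at 86.4 and 91.5 CPM and Oat, which turns ornithine towards proline, at 85.0 and 79.2 CPM. The antizyme gene Oaz1, which brakes Odc1, stood at 1424 and 1490 CPM, and the spermine oxidase gene Smox at 82.5 and 87.3 CPM. The polyamine oxidase gene Paox was lower in the NAM library, at 42.9 and 34.2 CPM (log2 ratio -0.32, interval -0.47 to -0.18). Ddah1, whose enzyme breaks down methylated arginines that inhibit nitric oxide synthases, had 0 untreated and 14 NAM UMIs, under the minimum of 20. Neither the constitutive synthases nor the urea cycle entry genes were appreciably detected, with Nos3 at 0.662 and 0.588 CPM and Cps1 and Nags at 0 UMIs. In Ly6c2 monocytes Irf1 was again higher (138 and 225 CPM) and Nfkb1 lower (276 and 90.4 CPM, log2 ratio -1.61, interval -1.90 to -1.33).

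Across the 14 gates of both libraries, 28 points that share libraries and differ in size, the levels of Nos2 correlated with those of Slc7a2 (Pearson's r 0.79) and less with Sat1 (0.59). Srm and Sms had an r of 0.71. Ass1 ran opposite to Srm (-0.58) and Sms (-0.54). Of 9405 genes, gate markers left out, those most like Nos2 were Bnip3 (0.87) and Eno2 (0.85), known targets of hypoxia signalling, followed by Mgarp, Plk2 and the phosphofructokinase gene Pfkl (0.82 for each). These values describe likeness over gates and carry no test.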

How the data were processed

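UMI counts per gene and cell, deposited as whole numbers without normalisation, had been made by the authors from 10x Genomics Single Cell 3′ libraries (version 2 chemistry) with Cell Ranger 2.1.0 on mm10. Each of the 2922 untreated and 3276 NAM barcodes lay within the study's limits of at least 1000 genes and 3000 UMIs and at most 10% mitochondrial UMIs, and none was removed here. No doublet caller was run. Cells holding markers of lymphocytes and of macrophages together were kept out of the gates (14 untreated and 33 NAM cells).

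The members, the gate markers, the pathway list and the alternatives were chosen with earlier results of these data known, and gate thresholds were set after the counts were seen. UMIs were summed per gate and library and divided by the gate's total to give CPM, with exact Poisson intervals. Ratios carry exact conditional binomial intervals and shares Clopper-Pearson intervals, all at 95%. Counts past 1.5 fold used genes with 20 or more UMIs in the gate. A count of 0 was given the limit of 3 UMIs. To compare shares across depths each cell was thinned at random to 3000 UMIs (seed 1), which left out no cell. Named genes were the 8 members, pathway genes past 1.5 fold in macrophages, and the 5 genes most like Nos2 by Pearson's r of log2(CPM + 10) over gates and libraries, with at least 200 UMIs. Other pathway genes, and gate or check markers, were named after their values were seen. Of the genes chosen at the start, 2 are not reported here. No p-value was computed, there being 1 library per group. Alternatives were stricter and looser thresholds, median-of-ratios scaling, means of cell shares, thinning, and leaving out the deepest 2.5% of cells, myeloid cells with a lymphocyte marker UMI, or the 5 cells highest for the gene. On simulated counts for Mmp12 Hmox1 macrophages (5910 genes, 200 of them changed 2 fold) the ratio intervals held the true value for 95.7% of genes and lay on the right side of 0 for 91.5% of the changed genes. These counts were drawn from the Poisson model that the intervals assume, without spread between cells, mice or libraries. Genes with few UMIs were left out. The result checks the calculation, not how well the intervals hold for these data. Positions came from GENCODE (GRCm38) by symbol. Python 3.11.15, NumPy 2.4.6, SciPy 1.17.1, pandas 2.3.3 and matplotlib 3.10.9 were used.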

Additional observations from a re-analysis of the deposited data

Results flagged for a closer look

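For 2 members the NAM library was past 1.5 fold higher in at least 1 gate and past 1.5 fold lower in another, each with an interval that left out 0. The difference between gates was not tested, since there was 1 library per group.

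Slc7a2 was higher in the NAM library by a log2 ratio of 1.06 in Mmp12 Hmox1 macrophages and 1.41 in Mmp12 Hmox1 C1q-low cells, and lower in cycling macrophages (-1.68, from 15 and 5 UMIs). Sms was higher by 1.15 in Xcr1 Clec9a dendritic cells, from 15 and 32 UMIs, and lower in Ly6c2 monocytes (-1.05). In the Xcr1 Clec9a cells Ccr7 and Fscn1 summed to 845 CPM in the untreated and 108 CPM in the NAM library, and their part in the Sms difference was not tested.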

How the results depend on the processing

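Over 111 ratios (each member in each gate, where counts allowed) the alternatives gave 881 values, of which 823 lay within the counting interval of the ratio, 54 lay outside it and 4 changed direction. Of the 49 ratios whose interval left out 0, 16 kept it so under each alternative that gave an interval. Direction changed with stricter thresholds for Slc7a2 in Mmp12 Hmox1 C1q-low cells (-0.21), and after thinning for Srm in all cells (0.099) and all macrophages (0.081) and for Sat1 in cycling macrophages (0.072). The cause was not tested. Nos2 in untreated Mmp12 Hmox1 macrophages was at 7.05 CPM, but at 1.92 CPM with looser thresholds. The Nos2 ratio in all macrophages stayed within its interval under each alternative. Members past 1.5 fold in Mmp12 Hmox1 macrophages numbered 2, but 4 with stricter thresholds, 1 after thinning and 0 with a minimum of 100 UMIs, where 19.4%, 22.3% and 6.36% of all genes were past it. In Ly6c2 monocytes they numbered 4, but 2 with looser thresholds, 2 after thinning and 1 with a minimum of 100 UMIs, beside 18.8%, 22.5% and 9.55%. In Ctsk Acp5 cells there were 0, but 2 without a minimum, beside 33.9%. The pathway list had 2 in all macrophages and 4 after thinning, beside 11.7%. No paired analysis was possible because there was 1 library per group. Nos2 is limited by its 252 UMIs in all, and the dendritic gates by their 26 to 39 cells.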
